A study of Danio rerio with 26 samples.

Results

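The 9 genes described here, of 32520 in each expression table, are the zebrafish hnf4 family (hnf4a, hnf4b and hnf4g) and 6 genes of fatty acid synthesis (srebf1, acaca, fasn, elovl6, scd and fads2). They were taken by gene name from the embryo table and joined to the oocyte and knockdown tables by gene identifier. They were chosen by their transcript levels in oocyte stages IV and I, with results of these data known, because hnf4b and scd were far lower in stage IV than in stage I. Among the 16067 genes tested in oocytes, the hnf4b difference ranked 6 and the scd difference ranked 11 among the falls, so the values of stages IV and I are compared as a description without a test.

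The study measured RNA from zebrafish oocytes and whole wild-type embryos by stranded total RNA sequencing after ribosomal RNA depletion. Oocytes of stages I, II, III and IV had 2 libraries each, made from 50 oocytes per library and 100 ng of RNA. Stages I and II were collected 1 to 2 days, stage III 4 to 7 days and stage IV 8 to 10 days after a mating that emptied the ovary of ripe eggs. Oocytes of stages I and II were freed with collagenases I and II, those of stage III with collagenase I, and those of stage IV by hand without enzyme, so stage and isolation cannot be told apart between these groups, except between stages I and II. Wild-type embryos had 3 libraries, of 20 embryos and 500 ng of RNA each, at each of 0, 2, 4 and 6 hours after fertilization (hpf). A separate experiment compared embryos at 4 hpf in which znf281b, a zinc finger transcription factor gene, was knocked down with the RNA-cutting enzyme pCas13d (znf281b KD, 3 libraries) with embryos given pCas13d alone (3 libraries). All groups carry the genotype label AB, TF and TLF, and each library pools many oocytes or embryos. Oocyte and wild-type replicates are described as biological, but neither these nor the knockdown replicates are tied to separate parents, so p-values measure the spread between libraries, which may be partly technical.

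HNF4 proteins are nuclear receptors that hold fatty acids in their ligand pocket and switch on genes of lipoprotein assembly and lipid transport in liver and gut. In fatty acid synthesis, acetyl-CoA carboxylase (acaca) makes malonyl-CoA, fatty acid synthase (fasn) builds palmitate from it, elovl6 lengthens palmitate to stearate, and stearoyl-CoA desaturase (scd) puts the double bond into oleate. The transcription factor encoded by srebf1 turns on these genes in mammalian liver, and the desaturase encoded by fads2 acts on polyunsaturated fatty acids. The zebrafish oocyte takes up vitellogenin, a lipoprotein made in the liver, as yolk, and the embryo mobilizes that lipid through the yolk syncytial layer (YSL), which packs it into lipoproteins.

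Values are in TPM, a relative abundance scaled for transcript length, so levels of different genes within a library can be set side by side. Tests used limma on log2(TPM + 1), 1 fit per table, with Benjamini-Hochberg adjustment over all genes tested, and an adjusted p below 0.05 counted as a call. A fold change on this scale understates the change of genes near 1 TPM. TPM keeps no read depth, so depth is unknown and no counting interval is given. Within groups, log2(TPM + 1) values correlated across genes at 0.975 or more in oocytes, 0.986 or more in wild-type embryos and 0.985 or more in the knockdown table. All 10 matched oocyte marker genes averaged at least 1 TPM in every oocyte stage, as they also did in wild-type embryos at 0, 2 and 4 hpf. Their summed level ran from 15106 to 16960 TPM in stage I, 15436 to 16953 TPM in stage II, 12768 to 14523 TPM in stage III and 3287 to 6826 TPM in stage IV. Markers of follicle somatic cells moved the other way, with summed levels of 97.9 to 123 TPM in stage I, 122 to 123 TPM in stage II, 282 to 370 TPM in stage III and 564 to 691 TPM in stage IV. Markers of other cell types were also higher in stage IV than in stage I, with sums of 165 to 526 against 7.18 to 13.6 TPM for blood and immune cells, 88.3 to 168 against 6.6 to 8.74 TPM for stroma and vessels, 111 to 193 against 7.38 to 8.7 TPM for adipocytes, 17.0 to 151 against 4.44 to 5.6 TPM for liver, and 178 to 181 against 4.79 to 6.4 TPM for YSL and endoderm. In stage IV, 9 of 10 blood and immune, 9 of 11 stromal and vascular, 4 of 9 adipocyte, 7 of 14 liver and 5 of 10 YSL and endoderm genes averaged at least 1 TPM. The adipocyte count was also 4 in stages II and III. Between stages IV and I the 5 adipocyte genes above the filter had a median log2 change of 0.53, so the sum does not stand for the set. A higher sum does not show that a cell type was present. The part of these markers in the oocyte results below was not tested, and in pooled material fewer cells of a type and less RNA per cell cannot be told apart.

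hnf4b (ENSDARG00000104742) was the hnf4 gene of the growing oocyte, and its level alternated from stage to stage. It stood at 34.0 and 29.1 TPM in the stage I libraries, 3.36 and 8.21 TPM in stage II, 27.2 and 25.6 TPM in stage III, and 0.28 and 0.54 TPM in stage IV. Stages I and III were thus high and stages II and IV low, and no stage II or stage IV library reached any library of stages I or III. hnf4a (ENSDARG00000021494) was listed at 0 in all 6 libraries of stages I to III and at 1.28 and 0.54 TPM in stage IV. hnf4g (ENSDARG00000071565), the third gene of the family, did not exceed 0.67 TPM in any oocyte library. Of the summed hnf4 TPM, hnf4b made up 99.6% ± 0.36 in stage I, 89.9% ± 9.26 in stage II and 99.7% ± 0.013 in stage III (SD, n = 2 each). In stage IV the sum was 1.51 ± 0.078 TPM, of which hnf4b made up 27.6% ± 13.6 (SD, n = 2).

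**Figure D1:**
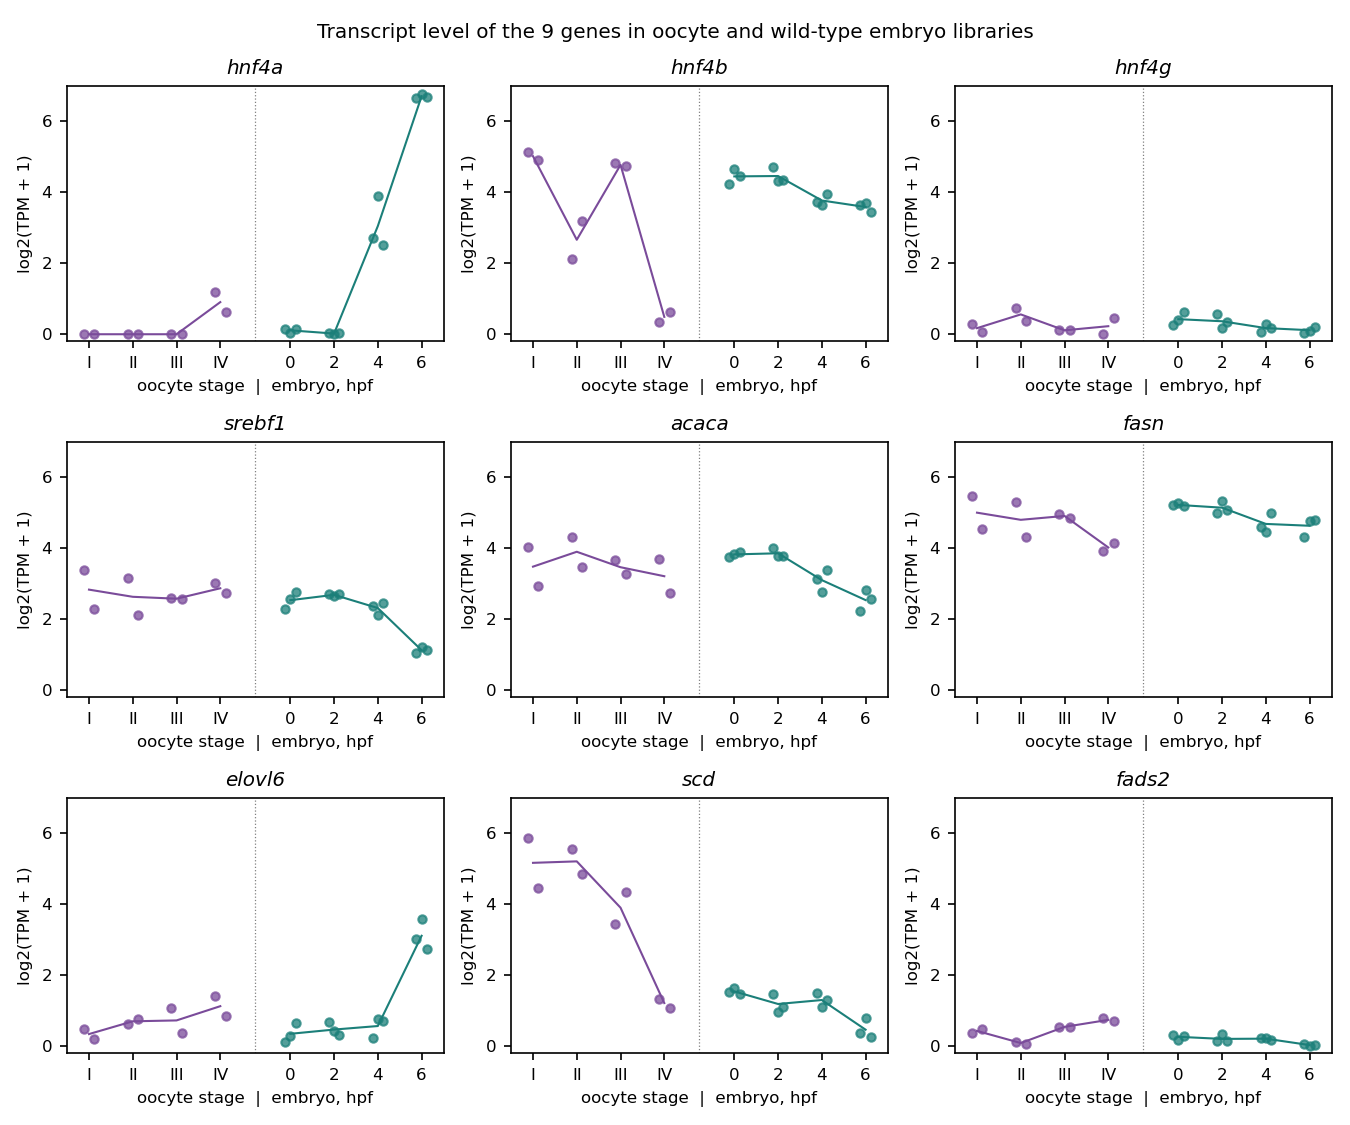
Transcript level of the 9 genes on the log2(TPM + 1) scale, with 1 point per library and lines through the group means, for oocyte stages I to IV (2 libraries each, left of the dotted line) and wild-type embryos at 0 to 6 hpf (3 libraries each, right of it). hnf4b is high in stages I and III and low in stages II and IV, scd falls to 1.54 and 1.13 TPM in stage IV, and hnf4a reaches 100.3 to 109 TPM at 6 hpf; the oocyte and embryo tables were normalized separately.

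Stages III and II were the oocyte libraries that the choice of genes did not use, and they were tested, with the difference in isolation between them. The fit took its spread from all 8 oocyte libraries, including those of stages I and IV that the choice used, so the test is not independent of it. Of the 9 genes, 6 passed the filter of 1 TPM in at least 2 oocyte libraries, and 1 of them was called, against 2.53% of all genes tested in this comparison. hnf4b rose to 26.4 ± 1.11 TPM in stage III, against 5.79 ± 3.43 TPM in stage II (SD, n = 2 each), a log2 change of 2.11 (SE 0.38, limma adjusted p = 0.0317). The call depended on the fit of all 8 oocyte libraries and on the filter, since the adjusted p was 0.0622 with only stages II and III fitted and 0.0857 with no filter on low values. It was also lost without stage III replicate 1 (adjusted p = 0.228), without stage III replicate 2 (0.135) and without stage II replicate 1 (0.199), in limma fits where the lone library is assumed to vary like the other groups. The 2 stage II libraries were far apart for hnf4b: replicate 1 minus replicate 2 was -1.08 on the log2 scale, and 99.6% of tested genes had at least that value. In the same comparison 7 of 15 tested follicle somatic cell markers were called higher, beside 2.00% of all genes tested. Among them foxl2b, a granulosa transcription factor, was at 31.9 ± 3.61 TPM in stage III and 2.10 ± 0.028 TPM in stage II (SD, n = 2 each). Of the 18 matched markers, 7 averaged at least 1 TPM in stage II, 14 in stage III and 15 in stage IV. Some may thus have passed the filter only through the later stages, where they are high, so their count is no independent test. The 10 oocyte markers had a median log2 change of -0.31, against -0.16 over all genes tested.

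The gene whose profile was most like that of hnf4b over the 8 oocyte and 12 wild-type embryo libraries was CABZ01057488.1 (ENSDARG00000110427), with Pearson's r = 0.985 on log2 values centred within each table, among 14229 genes compared. This gene has no annotated name in the sources used here. It stood at 11.1 and 11.3 TPM in stage I, 0.93 and 4.24 TPM in stage II, 13.4 and 9.62 TPM in stage III, and 0.14 and 0.24 TPM in stage IV. It repeated the high and low stages of hnf4b, and the ratio of hnf4b to it stayed between 1.94 and 3.61 in the 8 oocyte libraries and between 2.02 and 3.13 in the 12 embryo libraries. Where it lies relative to hnf4b, and whether reads were shared between them, was not tested. Also among the most alike were zgc:162971 (r = 0.913), irf2a (r = 0.906) and si:ch73-266f23.1 (r = 0.900). Their stage II levels lay closer to their stage I levels than those of hnf4b: irf2a, for example, averaged 94.0 TPM in stage I, 81.4 TPM in stage II, 119 TPM in stage III and 30.2 TPM in stage IV. These correlations describe libraries that share stages and times and carry no p-value.

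After fertilization the hnf4 family changed its make-up, from mostly hnf4b at 0 and 2 hpf to mostly hnf4a at 6 hpf. hnf4a stood at 0.11, 0.02 and 0.11 TPM at 0 hpf, 0.02, 0 and 0.02 TPM at 2 hpf, 5.62, 14.0 and 4.72 TPM at 4 hpf, and 100.3, 109 and 102 TPM at 6 hpf. The 6 early libraries all lay below the 4 hpf libraries, and these all lay below the 6 hpf libraries. hnf4b ran through 17.8, 24.5 and 20.9 TPM at 0 hpf, 25.4, 19.0 and 19.3 TPM at 2 hpf, 12.2, 11.5 and 14.4 TPM at 4 hpf, and 11.4, 11.96 and 9.80 TPM at 6 hpf. Its 4 and 6 hpf libraries all lay below those of 0 and 2 hpf, and overlapped each other. The share of hnf4b in the summed hnf4 TPM was 98.0% ± 0.84 at 0 hpf, 98.6% ± 0.62 at 2 hpf, 62.6% ± 15.9 at 4 hpf and 9.61% ± 0.79 at 6 hpf (SD, n = 3 each). The sum itself was 21.5 ± 3.38 TPM at 0 hpf, 21.5 ± 3.81 TPM at 2 hpf, 21.0 ± 4.22 TPM at 4 hpf and 115 ± 5.0 TPM at 6 hpf (SD, n = 3 each). hnf4g stayed at or below 0.53 TPM in all 12 embryo libraries.

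**Figure D2:**
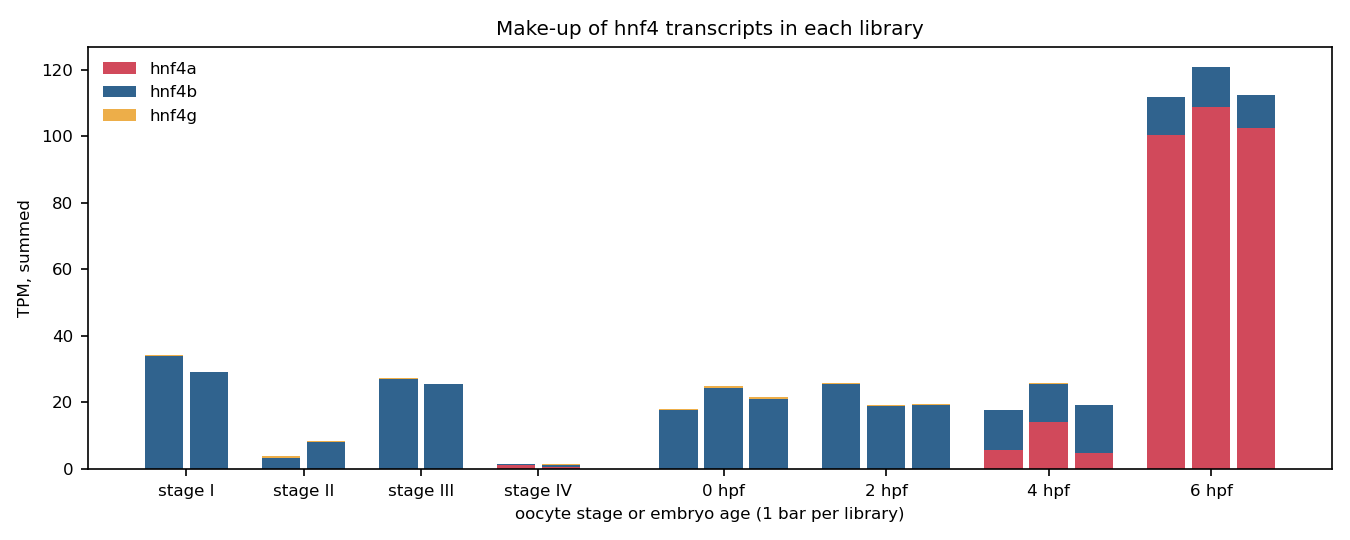
TPM of hnf4a, hnf4b and hnf4g stacked in 1 bar per library, for 2 libraries of each oocyte stage and 3 of each embryo time. Nearly all of each bar is hnf4b in stages I and III and at 0 and 2 hpf, and hnf4a makes up 90.3% ± 0.73 of it at 6 hpf (SD, n = 3).

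In embryos 7 of the 9 genes passed the filter of 1 TPM in at least 3 libraries, and hnf4g and fads2 did not. Between 2 and 0 hpf limma called 0 of the 7, against 0.0122% of all genes tested, and 0 of the 7 had an unadjusted p under 0.05. Between 4 and 2 hpf 1 gene rose and 4 fell, in a comparison where 65.7% of all genes tested were called, 11.0% higher and 54.7% lower. Between 6 and 4 hpf 2 rose and 3 fell, where 78.6% of all genes tested were called, 22.8% higher and 55.8% lower. Between 6 and 0 hpf all 7 were called, 2 higher and 5 lower, where 89.1% of all genes were called, 21.9% higher and 67.2% lower. The shares of these genes that were called were close to the background. These comparisons share the libraries of 0, 2, 4 or 6 hpf with each other.

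The fall of the typical gene has to be read with the falls of the 7. The median log2 change over all genes tested was -0.43 between 4 and 2 hpf, -0.56 between 6 and 4 hpf and -1.06 between 6 and 0 hpf. Scaling each library by the median of its gene ratios, a scaling that takes the typical gene as unchanged, moved those medians to 0.03, -0.03 and -0.06. It also moved the split of calls, to 4017 higher and 3678 lower between 4 and 2 hpf (1803 and 8924 without it), 6356 and 6389 between 6 and 4 hpf (3717 and 9119), and 6685 and 7054 between 6 and 0 hpf (3578 and 10978). Of the 7 genes, 1 was called higher and 0 lower between 4 and 2 hpf under that scaling. Between 6 and 4 hpf, and likewise between 6 and 0 hpf, 4 were called higher and 2, srebf1 and scd, lower. Directions that turn under that scaling in these comparisons are given beside each gene.

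hnf4a rose by a log2 change of 3.03 between 4 and 2 hpf (SE 0.27, limma adjusted p = 1.33e-06) and by 3.66 between 6 and 4 hpf (SE 0.27, limma adjusted p = 6.35e-08). It passed the filter only through its 4 and 6 hpf libraries, where it is high, and so had to differ from its 2 and 0 hpf libraries. hnf4b fell by 0.69 on the log2 scale between 4 and 2 hpf (SE 0.15, limma adjusted p = 0.00163). Under the median scaling the hnf4b change was -0.16 and was not called (limma adjusted p = 0.381). Between 6 and 4 hpf hnf4b had a log2 change of -0.18 (95% interval -0.51 to 0.14, limma adjusted p = 0.278), which turned to 0.54 under the median scaling (limma adjusted p = 0.00303). Between 6 and 0 hpf its fall of 0.86 on the log2 scale (limma adjusted p = 0.000124) turned to a rise of 0.40 under that scaling (limma adjusted p = 0.0151).

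**Figure D3:**
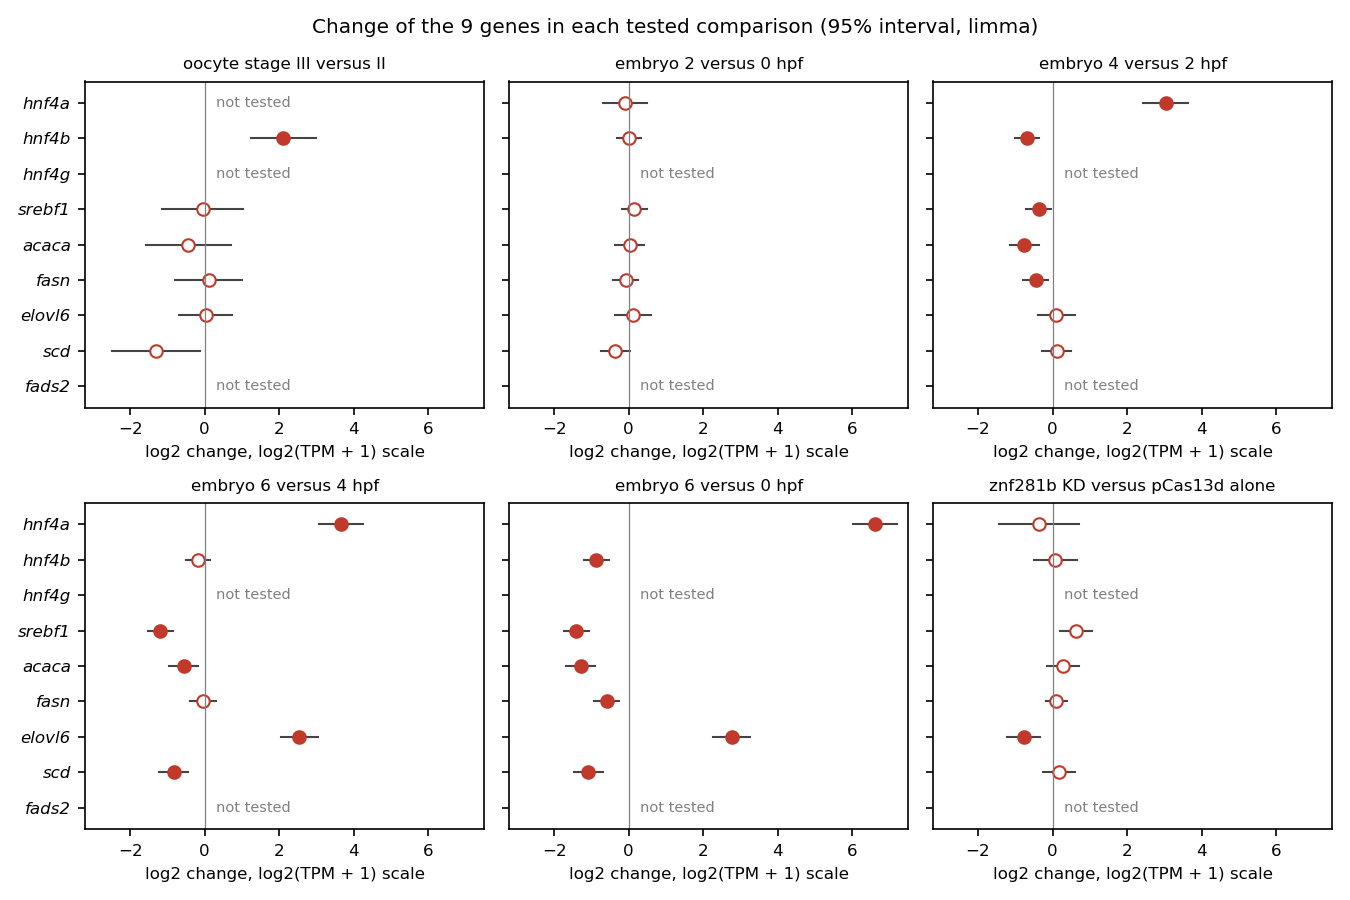
log2 change of each of the 9 genes in the 6 tested comparisons, as points with 95% intervals from limma on the log2(TPM + 1) scale; filled points have an adjusted p under 0.05, and genes below the filter are marked as not tested. hnf4b between oocyte stages III and II, hnf4a and elovl6 towards 6 hpf, and elovl6 in znf281b KD are filled. Falls of hnf4b, srebf1, acaca, fasn and scd in embryos are filled too, and some of them were lost or turned under the median scaling.

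Among lipoprotein and gut genes known from other vertebrates to be controlled by HNF4, those that passed the filter were highest at 6 hpf. Most of these were still low at 4 hpf, and a link to hnf4a was not tested. Of 22 such genes matched in the tables, 8 passed the filter. limma called 3 of the 8 higher at 4 than at 2 hpf, where 11.0% of all genes were called higher, and the other 5 (apoc2, apoa1a, apoa1b, apobb.1 and fabp1b.1) were at or below 0.8 TPM in every 4 hpf library. All 8 were called higher at 6 than at 4 hpf, where 22.8% of all genes were called higher, and 8 were called under the median scaling. Of the 8, 4 passed the filter only through their 6 hpf libraries and so had to differ, and the other 14 were too low to test. apoa1a reached 1 TPM in only 4 libraries, of 2 and 6 hpf and none of 4 hpf, so its call is no independent test either. Among those called at 4 hpf, mttp and hnf1ba passed the filter only through their 4 and 6 hpf libraries. These genes had to differ from 2 hpf, so the count between 4 and 2 hpf is no independent test. mttp, which loads lipid onto apolipoprotein B, stood at 0.07, 0.19 and 0.19 TPM at 0 hpf, 0.02, 0 and 0.07 TPM at 2 hpf, 4.82, 20.8 and 1.81 TPM at 4 hpf, and 325, 321 and 252 TPM at 6 hpf. The lipoprotein gene apoc1 averaged 539 ± 42.0 TPM at 6 hpf and 8.79 ± 5.19 TPM at 4 hpf (SD, n = 3 each), a log2 change of 5.93 (limma adjusted p = 6.46e-09). The lipoprotein lipase activator gene apoc2 averaged 86.8 ± 13.7 TPM at 6 hpf and 0.20 ± 0.22 TPM at 4 hpf, and apoa1b, an apolipoprotein of high-density lipoprotein, 70.9 ± 16.6 and 0.38 ± 0.24 TPM at those times (SD, n = 3 each). nr0b2a, an atypical nuclear receptor that represses other receptors, averaged 149 ± 12.8 TPM at 6 hpf and 1.20 ± 0.78 TPM at 4 hpf (SD, n = 3 each, log2 change 6.15, limma adjusted p = 1.81e-10). It reached 1 TPM in only 4 libraries, those of 6 hpf and a single 4 hpf library. It thus passed the filter through the time where it is high, and its call is no independent test.

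The 4 hpf libraries spread widely for the genes already present at that time. Replicate 2 had the highest level of hnf4a (14.0 TPM), mttp (20.8 TPM), apoc1 (14.3 TPM) and hnf1ba, a liver and gut transcription factor gene (5.20 TPM), and replicate 3 had the lowest (4.72, 1.81, 4.02 and 1.46 TPM). Genes still below 1 TPM did not all keep that order, as apoa1b was at 0.11, 0.50 and 0.54 TPM in replicates 1, 2 and 3. Markers of the YSL and endoderm rose alongside. Their summed level ran from 14.8 to 17.0 TPM at 0 hpf, 14.9 to 17.1 TPM at 2 hpf, 258 to 516 TPM at 4 hpf and 2580 to 2837 TPM at 6 hpf. The summed level of the oocyte markers ran the other way, at 1399 to 1453 TPM at 0 hpf, 1273 to 1394 TPM at 2 hpf, 426 to 666 TPM at 4 hpf and 139 to 149 TPM at 6 hpf. Which cells held the hnf4a transcripts was not tested.

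**Figure D4:**
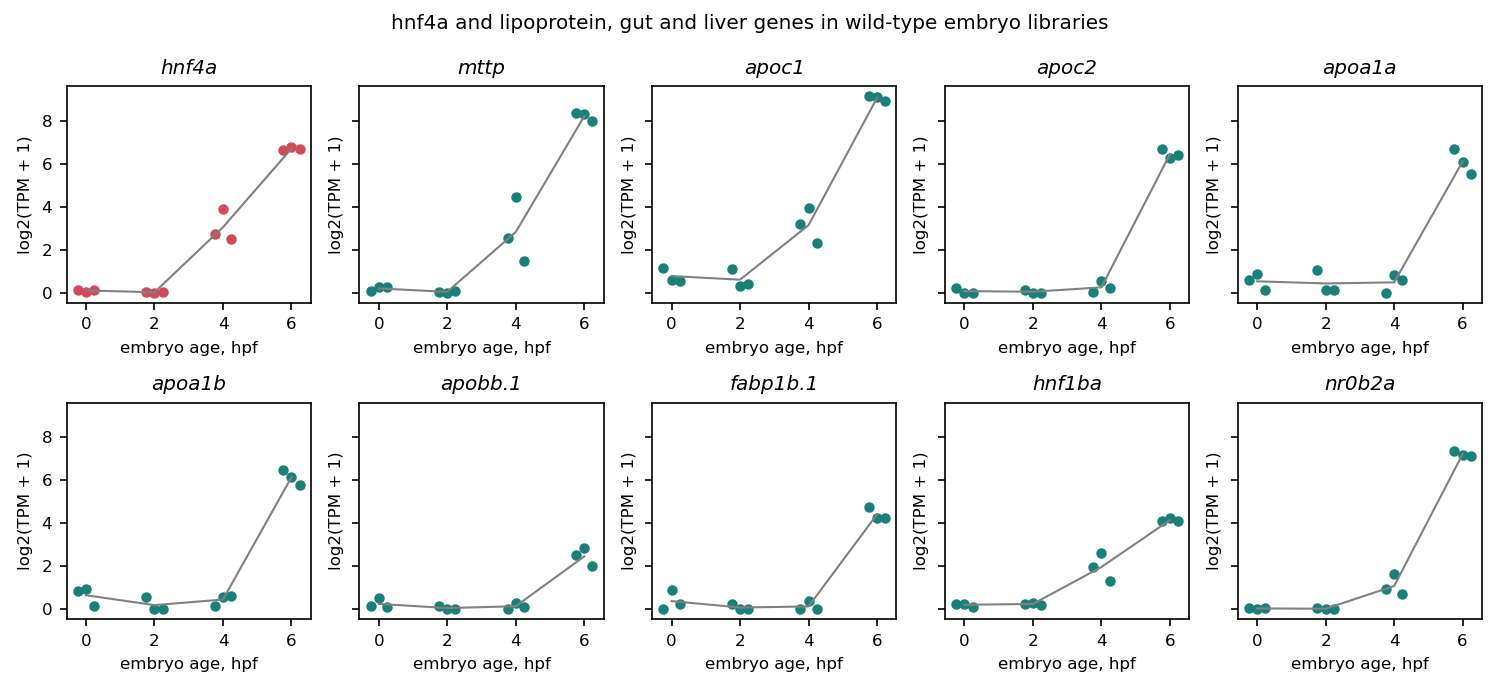
hnf4a, 8 lipoprotein, gut and liver genes that passed the filter, and nr0b2a in wild-type embryos at 0, 2, 4 and 6 hpf, on the log2(TPM + 1) scale, with 1 point per library (n = 3 per time) and lines through the means. All 10 genes are highest at 6 hpf, where mttp reaches 252 to 325 TPM, and the 4 hpf libraries spread widely for hnf4a, mttp and apoc1.

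srebf1 (ENSDARG00000067607) was at a similar level in all oocyte stages and fell after 4 hpf. It stood at 9.53 and 3.85 TPM in stage I, 7.89 and 3.34 TPM in stage II, 5.02 and 4.95 TPM in stage III, and 7.06 and 5.68 TPM in stage IV. The stages overlapped, and the stage III minus stage II difference was -0.05 on the log2 scale (95% interval -1.14 to 1.03, limma adjusted p = 0.961), which turned to 0.14 under the median scaling. In embryos srebf1 stood at 3.87, 4.95 and 5.78 TPM at 0 hpf, 5.57, 5.29 and 5.51 TPM at 2 hpf, 4.20, 3.33 and 4.50 TPM at 4 hpf, and 1.06, 1.32 and 1.19 TPM at 6 hpf. The 6 hpf libraries lay below all others. Between 6 and 4 hpf srebf1 fell by 1.19 on the log2 scale (SE 0.15, limma adjusted p = 1.22e-05). Its fall of 0.37 between 4 and 2 hpf sat at the threshold (SE 0.15, limma adjusted p = 0.0494), was lost in 5 of the 6 fits that left out 1 library (adjusted p up to 0.156) and turned to 0.09 under the median scaling (adjusted p = 0.623).

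Several regulators of SREBP processing fell beside srebf1 after 4 hpf. Of 7 other tested genes of the SREBP pathway, 5 fell and 0 rose between 6 and 4 hpf, with a median log2 change of -1.14 against -0.56 over all genes, of which 55.8% were called lower. Under the median scaling 5 fell and 2 rose. scap, the escort that carries SREBP to the Golgi, averaged 1.94 ± 0.58 TPM at 6 hpf and 8.97 ± 1.89 TPM at 4 hpf (SD, n = 3 each, log2 change -1.77, limma adjusted p = 7.38e-07). insig1, which holds SREBP back in the endoplasmic reticulum, averaged 3.50 ± 0.83 TPM at 6 hpf and 9.75 ± 2.22 TPM at 4 hpf (SD, n = 3 each, log2 change -1.25, limma adjusted p = 3.47e-05). In cholesterol synthesis, the other branch under SREBP control, 13 of 17 tested genes fell and 3 rose between 6 and 4 hpf, beside 55.8% of all genes called lower and 22.8% higher, and 11 fell and 4 rose under the median scaling. Among the 17, sqlea passed the filter only through the 6 hpf libraries and so had to differ. hmgcs1, which makes the precursor of mevalonate, averaged 9.19 ± 0.66 TPM at 6 hpf and 66.1 ± 14.7 TPM at 4 hpf (SD, n = 3 each, log2 change -2.70, limma adjusted p = 1.74e-09).

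acaca (ENSDARG00000078512), which catalyses the committed step, was similar across oocyte stages. It stood at 15.5 and 6.60 TPM in stage I, 19.0 and 10.2 TPM in stage II, 11.7 and 8.67 TPM in stage III, and 11.95 and 5.66 TPM in stage IV, and all stages overlapped. Its difference between stages III and II was -0.44 on the log2 scale (95% interval -1.58 to 0.70, limma adjusted p = 0.645). In embryos acaca stood at 12.5, 13.2 and 13.9 TPM at 0 hpf, 15.0, 12.9 and 12.8 TPM at 2 hpf, 7.81, 5.88 and 9.51 TPM at 4 hpf, and 3.70, 6.03 and 4.98 TPM at 6 hpf. Its levels at 4 hpf lay below those of 2 hpf without overlap (log2 change -0.76, SE 0.18, limma adjusted p = 0.00255; -0.24 and adjusted p = 0.162 under the median scaling). Between 6 and 4 hpf it fell by 0.56 on the log2 scale (SE 0.18, limma adjusted p = 0.0110), a call lost without 6 hpf replicate 1 (adjusted p = 0.0548) and turned to 0.10 under the median scaling. Between 6 and 0 hpf it fell by 1.29 (SE 0.18, limma adjusted p = 1.35e-05), and this call was lost under the median scaling (limma adjusted p = 0.502). Its paralog acacb, whose product acts at mitochondria in mammals and which was named after its values were seen, averaged 12.8 ± 3.77 TPM at 6 hpf and 4.90 ± 0.53 TPM at 4 hpf (SD, n = 3 each, log2 change 1.20, limma adjusted p = 3.54e-05).

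fasn (ENSDARG00000087657) was the most abundant of the 6 fatty acid synthesis genes in embryos. It stood at 36.3, 37.7 and 35.4 TPM at 0 hpf, 31.3, 39.5 and 33.1 TPM at 2 hpf, 23.2, 21.1 and 31.1 TPM at 4 hpf, and 19.1, 26.5 and 26.9 TPM at 6 hpf. Levels at 4 hpf lay just below those at 2 hpf (log2 change -0.46, SE 0.16, limma adjusted p = 0.0224), and the call was lost without 4 hpf replicate 1 (0.0685), 4 hpf replicate 2 (0.0958) or 2 hpf replicate 2 (0.0923) and turned to 0.09 under the median scaling. Levels at 6 and 4 hpf overlapped, with a log2 difference of -0.05 (95% interval -0.39 to 0.29, limma adjusted p = 0.771). Relative to the typical gene the 6 hpf level was higher, by 0.70 under the median scaling (limma adjusted p = 0.000176). Between 6 and 0 hpf fasn fell by 0.59 on the log2 scale (SE 0.16, limma adjusted p = 0.0034), which turned to a rise of 0.72 under the median scaling (limma adjusted p = 0.000114). In oocytes the same identifier stood at 43.4 and 22.3 TPM in stage I, 38.4 and 18.8 TPM in stage II, 30.4 and 28.0 TPM in stage III, and 14.1 and 16.6 TPM in stage IV. Stage IV was below all other stages, and its log2 difference to stage I, a contrast used in the choice of genes, was -0.98. The oocyte table names this identifier ccdc57, which RefSeq's GRCz12tu annotation places next to fasn, so the gene was followed by its identifier.

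elovl6 (ENSDARG00000004402) was below 1 TPM in every wild-type embryo library up to 4 hpf and was higher at 6 hpf. In oocytes it did not exceed 1.66 TPM. In embryos it stood at 0.08, 0.23 and 0.56 TPM at 0 hpf, 0.60, 0.34 and 0.24 TPM at 2 hpf, 0.18, 0.69 and 0.64 TPM at 4 hpf, and 7.06, 11.0 and 5.73 TPM at 6 hpf. Every 6 hpf library lay above all the earlier ones, and the log2 change between 6 and 4 hpf was 2.54 (SE 0.23, limma adjusted p = 3.40e-07). It passed the filter only through the 6 hpf libraries and so had to differ there. Among the other elongation and desaturation genes, 4 of 14 tested rose and 7 fell between 6 and 4 hpf, and under the median scaling 7 rose and 5 fell. Over all genes tested, 22.8% were called higher and 55.8% lower without that scaling, so the counts of this list lay near the background. degs1, a desaturase of ceramide synthesis, rose to 45.9 ± 1.79 TPM at 6 hpf, against 2.77 ± 0.99 TPM at 4 hpf (SD, n = 3 each, log2 change 3.67, limma adjusted p = 1.97e-09). The elongase gene elovl1b averaged 6.67 ± 1.01 TPM at 6 hpf and 43.6 ± 5.03 TPM at 4 hpf (SD, n = 3 each, log2 change -2.54, limma adjusted p = 1.03e-09).

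scd (ENSDARG00000033662) had its high levels in small oocytes. It stood at 57.7 and 21.1 TPM in stage I, 46.4 and 28.1 TPM in stage II, 9.96 and 19.5 TPM in stage III, and 1.54 and 1.13 TPM in stage IV. Stages I and II overlapped, stage III lay below both, and stage IV lay below stage III. The log2 difference between stages IV and I was -3.95, and these values chose the gene. In the libraries the choice did not use, scd differed between stages III and II by -1.31 on the log2 scale (SE 0.51, 95% interval -2.48 to -0.14), which was not called over all genes (limma adjusted p = 0.219). The ratio of scd to fasn TPM was 1.14 ± 0.27 in stage I, 1.35 ± 0.20 in stage II, 0.513 ± 0.26 in stage III and 0.089 ± 0.029 in stage IV (SD, n = 2 each). The second stearoyl-CoA desaturase gene, scdb, did not exceed 0.07 TPM in stages I to III and stood at 0.41 and 2.20 TPM in stage IV.

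In embryos scd stayed low. It stood at 1.88, 2.10 and 1.79 TPM at 0 hpf, 1.80, 0.96 and 1.17 TPM at 2 hpf, 1.83, 1.14 and 1.48 TPM at 4 hpf, and 0.29, 0.72 and 0.19 TPM at 6 hpf. The 6 hpf libraries lay below all others, and scd fell by 0.84 on the log2 scale between 6 and 4 hpf (SE 0.18, limma adjusted p = 0.000908). The ratio of scd to fasn was 0.016 ± 0.010 at 6 hpf and 0.053 ± 0.0027 at 0 hpf (SD, n = 3 each). fads2 (ENSDARG00000019532) did not exceed 0.72 TPM in oocytes or 0.27 TPM in wild-type embryos and was not tested.

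The genes whose profiles were most like that of scd over the 20 libraries were ccnjl (r = 0.971), acss2 (r = 0.963), igf2bp3 (r = 0.962), tmem132e (r = 0.959) and kif22 (r = 0.958). acss2, which makes acetyl-CoA from acetate, stood at 95.3 and 60.3 TPM in stage I, 115 and 79.2 TPM in stage II, 51.5 and 52.4 TPM in stage III, and 19.4 and 16.8 TPM in stage IV. Its low stages were those of scd. At 0 hpf, however, the 5 genes averaged 51.8, 77.1, 79.7, 12.5 and 205 TPM in that order, while scd averaged 1.92 ± 0.16 TPM (SD, n = 3).

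The 2 replicates of stages I and II differed in the same direction for 4 of the genes. In stage I, replicate 1 exceeded replicate 2 by a log2 difference of 1.41 for scd, 0.93 for fasn, 1.12 for acaca and 1.12 for srebf1, against a median of 0.21 over all genes tested. Between 2.35% and 9.45% of genes had a difference at least as high as these 4. In stage II the same 4 genes differed in the same direction, by 0.71, 0.99, 0.84 and 1.03, against a median of 0.07.

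The oocyte and embryo tables were normalized separately, so the new embryo and the stage IV oocyte are set side by side without a test. hnf4b was at 17.8 to 24.5 TPM at 0 hpf and at 0.28 and 0.54 TPM in stage IV, while CABZ01057488.1 averaged 7.72 TPM at 0 hpf and 0.19 TPM in stage IV. scd was at 1.79 to 2.10 TPM at 0 hpf and at 1.54 and 1.13 TPM in stage IV. At 0 hpf acaca averaged 13.2 TPM, fasn 36.4 TPM and srebf1 4.87 TPM, against 8.81, 15.3 and 6.37 TPM in stage IV in that order. Of these, hnf4b and CABZ01057488.1 stood far apart between the tables and the other genes much less so. hnf4b and scd were chosen on their stage IV and I levels. Such a gap was not particular to hnf4b and CABZ01057488.1. The genes most like scd in profile were all higher at 0 hpf than in stage IV: ccnjl, for example, averaged 51.8 and 4.235 TPM in that order, and acss2 77.1 and 18.1 TPM.

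The neighbouring pathways gave context to the change at 6 hpf. Among 15 tested genes that supply acetyl-CoA, malonyl-CoA and NADPH, 5 rose and 9 fell between 6 and 4 hpf, and 6 rose and 6 fell under the median scaling. These counts are read against 22.8% of all genes called higher and 55.8% called lower, and against a median log2 change of -0.56 over all genes. The mitochondrial citrate carrier gene slc25a1a fell to 14.0 ± 1.83 TPM at 6 hpf, against 62.9 ± 8.71 TPM at 4 hpf (SD, n = 3 each, limma adjusted p = 7.36e-09). Its paralog slc25a1b stood at 37.4 ± 6.38 TPM at 6 hpf and 0.45 ± 0.38 TPM at 4 hpf (SD, n = 3 each), and it passed the filter only through the 6 hpf libraries and so had to differ. In fatty acid oxidation 17 of 22 tested genes fell and 2 rose, with a median log2 change of -1.04, and 12 fell and 5 rose under the median scaling. acadl, a long-chain acyl-CoA dehydrogenase, averaged 1.88 ± 0.52 TPM at 6 hpf and 31.8 ± 8.96 TPM at 4 hpf (SD, n = 3 each, log2 change -3.49, limma adjusted p = 2.63e-09). In triacylglycerol synthesis and lipid droplets 14 of 21 fell and 5 rose, and 9 fell and 7 rose under the median scaling. Among the 21, gpat3 and plin6 passed the filter only through the 6 hpf libraries and so had to differ. gpam, which starts glycerolipid synthesis, averaged 0.94 ± 0.43 TPM at 6 hpf and 14.9 ± 3.42 TPM at 4 hpf (SD, n = 3 each, log2 change -3.04, limma adjusted p = 8.76e-09). Between stages III and II of the oocyte, 1 of 23 tested oxidation genes was called, against 2.53% of all genes tested. This gene, cpt1aa, the gate of mitochondrial fatty acid import, fell to 14.2 ± 0.18 TPM in stage III, against 42.0 ± 9.29 TPM in stage II (SD, n = 2 each, log2 change -1.49, limma adjusted p = 0.0434). That call was lost whichever stage II or III library was left out (adjusted p of 0.135 to 0.353), with no filter (0.101) and under the median scaling (0.0514).

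The targeted transcript, znf281b, was at 156 ± 13.6 TPM in znf281b KD embryos, against 252 ± 27.9 TPM in embryos with pCas13d alone (SD, n = 3 each, log2 change -0.69, limma adjusted p = 0.00991). Of the 9 genes, 7 passed the filter in this table and 1 was called, lower, against 9.36% of all genes tested called and 3.05% called lower. Over all genes 952 were called higher and 459 lower, and 724 and 594 under the median scaling. That gene was elovl6, at 0.40, 0.45 and 0.16 TPM in znf281b KD and 1.22, 1.41 and 1.22 TPM with pCas13d alone. The groups did not overlap, and the log2 change was -0.78 (SE 0.20, limma adjusted p = 0.0456). elovl6 passed the filter only through the pCas13d alone libraries, and the call was lost whichever of the 6 libraries was left out (adjusted p of 0.0676 to 0.134) and with a pseudocount of 0.1 (0.0619).

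srebf1 stood at 24.3, 19.4 and 18.6 TPM in znf281b KD and at 13.6, 15.6 and 10.2 TPM with pCas13d alone. Every knockdown library was above every control library, yet the log2 change of 0.64 (SE 0.19, 95% interval 0.20 to 1.07) missed the threshold over all genes (limma adjusted p = 0.0703). It passed without pCas13d alone replicate 2 (adjusted p = 0.0402). In the SREBP pathway list 1 of 7 tested genes was called, insig1, at 72.8, 82.8 and 78.5 TPM in znf281b KD and 39.9, 46.0 and 50.3 TPM with pCas13d alone (log2 change 0.77, limma adjusted p = 0.00863; 0.056 without znf281b KD replicate 2). In cholesterol synthesis 1 of 17 tested genes was called higher, hmgcs1, and 1 lower, ebp, and under the median scaling 1 and 3 were. The counts of both lists stand beside 6.32% of all genes tested called higher and 3.05% called lower, and are too small to set them apart from these shares. hmgcs1 was at 182, 168 and 174 TPM in znf281b KD and 94.3, 126 and 69.1 TPM with pCas13d alone (log2 change 0.89, limma adjusted p = 0.0254). The hmgcs1 call was lost in the fits without znf281b KD replicate 1, 2 or 3 or without pCas13d alone replicate 1 (adjusted p of 0.0736 to 0.0935), and in the fit with no filter (0.0761). ebp, a sterol isomerase gene named after its values were seen, averaged 2.27 ± 0.52 TPM in znf281b KD and 4.79 ± 0.72 TPM with pCas13d alone (SD, n = 3 each, log2 change -0.83, limma adjusted p = 0.0431). That call was lost whichever of the 6 libraries was left out (adjusted p of 0.0704 to 0.166) and with no filter (0.11). The list medians lay close to that of all genes: the SREBP pathway had a median log2 change of 0.06 and cholesterol synthesis 0.04, against 0.09 over all genes tested.

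The other synthesis enzymes were not called between znf281b KD and pCas13d alone. acaca was at 6.23, 6.09 and 5.58 TPM in znf281b KD and 5.16, 5.32 and 3.75 TPM with pCas13d alone (log2 change 0.29, 95% interval -0.14 to 0.72). fasn was at 26.7, 25.4 and 25.1 TPM in znf281b KD and 22.4, 24.1 and 25.2 TPM with pCas13d alone (log2 change 0.10, 95% interval -0.17 to 0.37). scd was at 3.45, 3.71 and 3.01 TPM in znf281b KD and 3.33, 2.42 and 2.98 TPM with pCas13d alone (log2 change 0.17, 95% interval -0.26 to 0.60). Only acaca did not overlap between the groups, and the limma adjusted p-values of the 3 were 0.350, 0.613 and 0.600 in that order.

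hnf4a was at 2.62, 5.93 and 4.75 TPM in znf281b KD and 4.77, 2.68 and 13.3 TPM with pCas13d alone, so the groups overlapped (log2 change -0.36, 95% interval -1.44 to 0.72, limma adjusted p = 0.661). The highest level was in pCas13d alone replicate 3, without which the log2 change was 0.19. The same library was the highest of its group for mttp (8.07 TPM), apoc1 (30.9 TPM), hnf1ba (7.67 TPM) and apoeb (631 TPM), the last being a lipoprotein gene of the YSL. hnf4b was at 17.2, 11.9 and 11.2 TPM in znf281b KD and 15.6, 14.3 and 8.63 TPM with pCas13d alone (log2 change 0.07, 95% interval -0.50 to 0.65). hnf4g and fads2 stayed at or below 0.65 TPM and were not tested.

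Some genes of other lipid steps were called higher in znf281b KD, beside 6.32% of all genes tested. In triacylglycerol synthesis and lipid droplets 2 of 19 tested rose and 0 fell, and 2 rose and 1 fell under the median scaling. In elongation and desaturation 2 of 14 rose and 0 fell, and 1 rose and 1 fell under that scaling. The median log2 changes of these lists were 0.05 and -0.02 in that order, against 0.09 over all genes tested. lpin2, a phosphatidate phosphatase of triacylglycerol synthesis, was at 16.5, 21.3 and 18.8 TPM in znf281b KD and 6.59, 9.02 and 6.26 TPM with pCas13d alone (log2 change 1.27, limma adjusted p = 0.00749). hsd17b12b, the ketoacyl reductase of the elongation cycle, was at 55.6, 48.4 and 41.8 TPM in znf281b KD and 17.9, 22.5 and 12.6 TPM with pCas13d alone (log2 change 1.44, limma adjusted p = 0.00749). In fatty acid oxidation 4 of 22 tested genes rose and 0 fell, with 6.32% of all genes tested called higher. Among them hadhab, of the mitochondrial trifunctional protein, averaged 150.1 ± 5.44 TPM in znf281b KD and 70.0 ± 18.0 TPM with pCas13d alone (SD, n = 3 each, log2 change 1.12, limma adjusted p = 0.00975). In wild-type embryos lpin2, hsd17b12b, hmgcs1 and insig1 all fell between 6 and 4 hpf (lpin2 by 2.56 and hsd17b12b by 2.17 on the log2 scale). In that comparison 55.8% of all genes tested were called lower, and the median log2 change was -0.56.

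Sums of stage markers also differed between the groups. The summed oocyte markers were at 1127 to 1159 TPM in znf281b KD and 825 to 948 TPM with pCas13d alone. Of the 10 genes, 1 was called higher, beside 6.32% of all genes tested: buc, a gene of the oocyte's Balbiani body. It averaged 396 ± 7.02 TPM in znf281b KD and 144 ± 56.3 TPM with pCas13d alone (SD, n = 3 each), a difference at least as large as that of the sum. The median log2 change of the 10 was 0.16, against 0.09 over all genes tested. The summed YSL and endoderm markers were at 451 to 577 TPM in znf281b KD and 611 to 963 TPM with pCas13d alone. Of these, 1 of 8 tested, apoeb, was called lower, beside 3.05% of all genes tested. Their part in the lipid gene differences was not tested. The pCas13d alone embryos can be set beside wild-type embryos of the same age, which come from a separate experiment and a separately normalized table. srebf1 stood at 13.1 ± 2.76 TPM with pCas13d alone and 4.01 ± 0.61 TPM in wild type at 4 hpf (SD, n = 3 each). In the same order scd averaged 2.91 and 1.48 TPM, elovl6 1.28 and 0.50 TPM, and acaca 4.74 and 7.73 TPM. hnf4a averaged 6.93 and 8.12 TPM, hnf4b 12.9 and 12.7 TPM, and fasn 23.9 and 25.1 TPM. These differences were not tested.

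**Figure D5:**
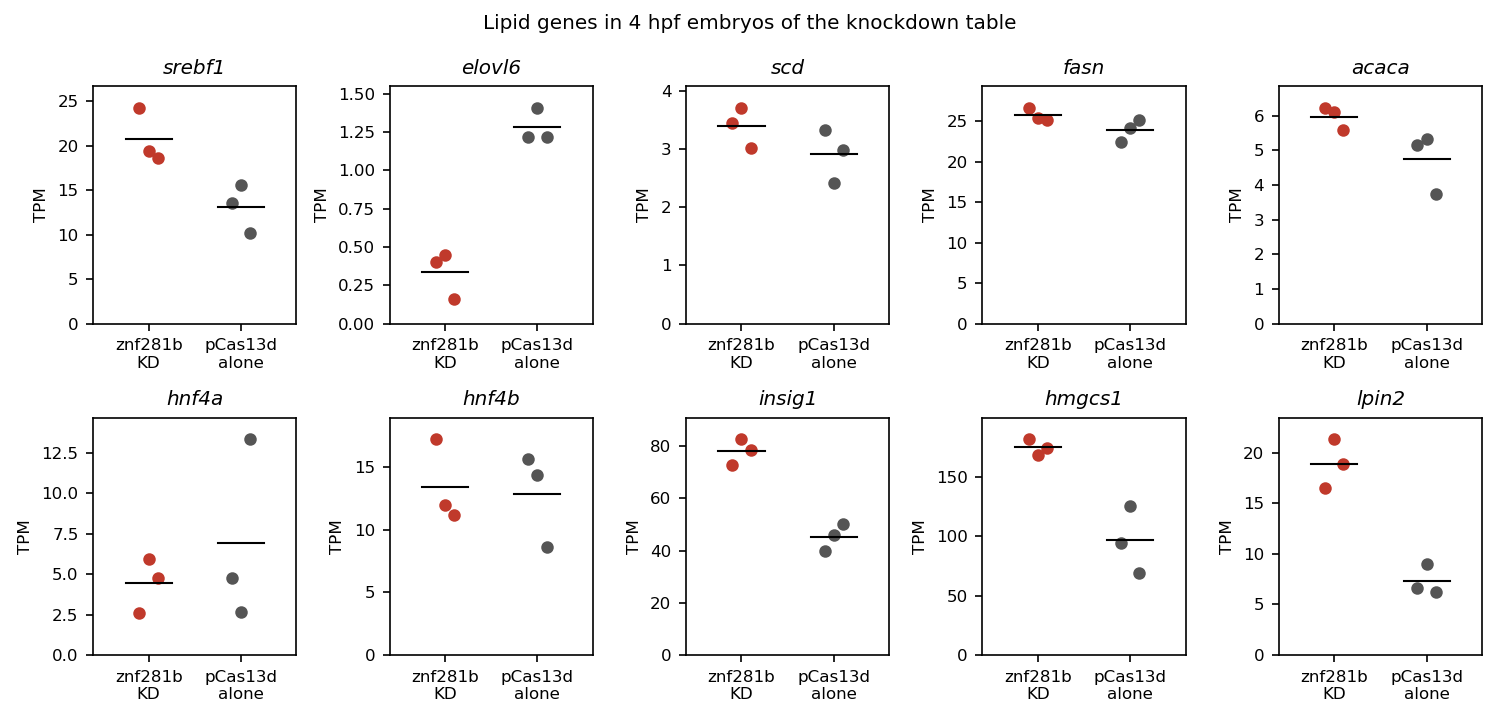
TPM of 7 of the 9 genes and of insig1, hmgcs1 and lpin2 in embryos at 4 hpf, with 1 point per library (n = 3 per group) and bars at the means, for znf281b KD (left, red) and pCas13d alone (right, grey). The groups do not overlap for srebf1, elovl6, acaca, insig1, hmgcs1 and lpin2, and they overlap for scd, fasn, hnf4a and hnf4b. Only elovl6, insig1, hmgcs1 and lpin2 were called, and the last 3 are shown from among called list genes. How many of all genes tested did not overlap was not counted, so this is a description only.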

How the data were processed

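The authors deposited TPM values per gene in 3 tables (oocytes, wild-type embryos, knockdown); per the submitters' processing notes, reads were aligned with STAR 2.7.3a to danRer11 and quantified with RSEM. The sources used here do not give the strand setting of the counting or the library kit of the knockdown libraries, whose sequencer was a G4, per the labels. Tables were joined by gene identifier and tests stayed within a table. In R 4.3.3, limma 3.58.1 (trended empirical Bayes) was fitted to log2(TPM + 1), with all groups of a table in 1 fit, for genes with at least 1 TPM in at least 3 libraries (2 in oocytes). A gene was called at a Benjamini-Hochberg adjusted p under 0.05, with no fold minimum. The script was tested on simulated data. No 2 libraries were identical, and no columns were left out.

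Alternatives were a pseudocount of 0.1, no filter, median-of-ratios scaling, a fit of only the 2 groups compared, a replicate block and leaving out each library. All 9 genes are named. From each list, up to 3 called genes with the largest change and at least 5 TPM in the higher group were named per comparison, plus the 5 genes most like hnf4b and scd in profile, of which 1 is not reported here; other list genes were named to show a pattern after their values were seen. The 9 genes, the gene lists and the tests were chosen with earlier results of these data known.

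The labels number the replicates. Same-numbered libraries deviated together between 6 and 4 hpf (r = 0.391, 0.106 and 0.186, each over 0.1), which pairs them by that rule, although replicate 2 at 6 hpf correlated best with replicate 3 at 4 hpf. Elsewhere the rule was not met: r was 0.102, 0.0935 and 0.149 between 6 and 0 hpf, and 0.119 with only 2 pairs between stages III and II. The blocked fit changed no call of the 9 genes between 6 and 4 hpf.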

Additional observations from a re-analysis of the deposited data

How the results depend on the processing

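Over 432 combinations of gene, comparison and alternative, 378 kept direction and call, 29 lost the call, 1 gained it and 24 turned. The count of called genes moved as follows. Between stages III and II it was 1, and 0 with no filter or with only the 2 groups fitted. Between 4 and 2 hpf it was 5, and 1 under the median scaling. In znf281b KD it was 1, and 0 with a pseudocount of 0.1 or with the replicate block. The median scaling also changed the split of calls. Between 6 and 4 hpf, 2 higher and 3 lower became 4 higher and 2 lower. Between 6 and 0 hpf, 2 higher and 5 lower became 4 higher and 2 lower. Leaving out 1 library gave 0 to 1 between stages III and II, 3 to 5 between 4 and 2 hpf, 4 to 5 between 6 and 4 hpf, 7 between 6 and 0 hpf and 0 to 1 in znf281b KD. Outside 6 versus 4 hpf the pairing rule was not met, though every 6 hpf library correlated best with the 0 hpf library of its own number. The block there ended the calls of srebf1 between 4 and 2 hpf (adjusted p = 0.0605) and of elovl6 in znf281b KD (0.0704), and no other call of the 9 genes.

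Directions that turned under the median scaling were, between 4 and 2 hpf, fasn (0.0887), srebf1 (0.0892) and cyp17a1 (0.18); between 6 and 4 hpf, hnf4b (0.54), fasn (0.70) and acaca (0.10); between 6 and 0 hpf, hnf4b (0.40) and fasn (0.72); between stages III and II, srebf1 (0.14); in znf281b KD, hnf4b (-0.0269) and fasn (-0.0024). With a pseudocount of 0.1 elovl6 turned to -0.0607 between stages III and II. Described without a test between stages IV and I, a pseudocount of 0.1 moved hnf4b to -6.00 and elovl6 to 1.83. Uncalled differences that turned when 1 library was left out ranged from -0.39 to 0.61 for fasn, -0.32 to 0.37 for elovl6 and -0.57 to 0.46 for srebf1 between stages III and II. They ranged from -0.12 to 0.12 for hnf4b and -0.037 to 0.0677 for acaca between 2 and 0 hpf, from -0.16 to 0.10 for fasn between 6 and 4 hpf, and in znf281b KD from -0.79 to 0.19 for hnf4a and -0.17 to 0.23 for hnf4b. The cause of these moves was not tested. With 2 oocyte libraries per stage, 3 per embryo group and TPM without depth, small changes and genes under 1 TPM cannot be judged.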
